A study of Homo sapiens with 9 samples.

Results

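The genes described here encode the minichromosome maintenance (MCM) proteins of the replicative helicase and their close partners: MCM2, MCM3, MCM4, MCM5, MCM6, MCM7, MCM8, MCM10 and MCMBP. They were listed by name, and each was read from the one probe set that the platform annotation maps to that symbol alone. All 9 were found among the 22465 genes measured this way. RNA came from cells labelled SH-SY5Y, a human neuroblastoma line, and each group has 3 arrays, named biological replicates in the labels. The groups were cells without okadaic acid (0 nM) and cells given it at 20 nM or at 60 nM, each for 12 h. Per the labels' protocols all groups were grown in high-glucose DMEM with 10% serum and exposed in 4% serum. Okadaic acid, a toxin of marine dinoflagellates, blocks the protein phosphatases PP2A and PP1. For the highest dose the labels disagree: the treatment field of those arrays gives 20 nM, but their title code and source name, with the series design, give 60 nM, which is used here.

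MCM2 to MCM7 form a ring around DNA that unwinds it ahead of the replication fork. The ring is loaded onto origins in G1 phase by the origin recognition complex with CDC6 and CDT1, and it becomes an active helicase in S phase when CDC45 and the GINS complex bind it. Transcription of these genes is known to rise as cells pass from G1 to S phase, under E2F transcription factors. MCM10 helps to activate the loaded ring, MCMBP binds MCM subunits outside the ring and helps them assemble, and MCM8 acts with MCM9 in a separate helicase of DNA repair.

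Levels are log2 intensities (mean ± SD, 3 arrays), and a fold change is a log2 difference whose standard error (SE) comes from a limma fit over all 9 arrays. A gene was called when its p-value, adjusted over all 22465 genes by Benjamini-Hochberg, was under 0.05. The background level was 5.82, the 95th percentile of 23 background probe sets, and 10062 genes exceeded it in the mean of at least 1 group, all 9 MCM genes among them. Arrays of a group correlated across genes at 0.995 or higher. Untreated replicate 3 and 20 nM replicate 2 each correlated least with the others of their group, at a mean of 0.996 and 0.997 across genes. Of the 6 noradrenergic neuroblastoma markers measured only GATA3 (7.32 ± 0.06, n = 3) was above background in untreated cells, while TH (4.57 ± 0.01), DBH (4.22 ± 0.02), PHOX2A (3.49 ± 0.08), HAND2 (4.97 ± 0.01) and CHGA (4.14 ± 0.00) were not. The 3 leukocyte and 3 glial markers measured were at background in all groups, and 3 of 5 epithelial markers, KRT8 (13.34 ± 0.20) among them, and 3 of 6 mesenchymal markers, VIM (11.51 ± 0.08) among them, were above it. The summed level of a list, as the mean over its markers on an array, was 7.55 to 7.62 untreated and 7.80 to 7.86 at 60 nM for the mesenchymal list, 7.99 to 8.15 and 7.97 to 8.003 for the epithelial list, and 4.75 to 4.81 and 4.74 to 4.76 for the noradrenergic list. At 60 nM CD44 rose by 1.04 (SE 0.06) and FN1 by 0.52 (SE 0.09) among the mesenchymal markers, and VIM had a value of 0.19 (limma adjusted p = 0.0536). COL1A1, COL1A2 and PRRX1 were at background, where PRRX1 had a value in the other direction, -0.32 (95% interval -0.45 to -0.20). The noradrenergic marker GATA3 fell by 0.23 (SE 0.04). GATA3 had 1 value on the 3 arrays at 20 nM, so its SE may be too small. The part of these markers in the results was not tested. Precision is limited by the number of arrays, and since the labels do not say whether the replicates came from separate cultures, the p-values only measure how these samples spread, which may be technical.

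At 60 nM okadaic acid all 6 genes of the MCM2 to MCM7 ring fell against untreated cells, MCM3, MCM6 and MCM5 by 1.59 to 2.00 and MCM7, MCM2 and MCM4 by 0.64 to 0.82 on the log2 scale. Of the other members MCMBP fell, while MCM10 and MCM8 did not pass the test, which makes 7 of 9 members lower and 0 higher. Over all genes 13.2% were called lower and 7.94% higher in this comparison, and among genes above background 26.1% and 14.9%. On 8 of 9 members, MCM10 included, the 60 nM arrays were all below the untreated ones. The same held for 19.2% of all genes and for 3600 of the 10062 genes above background. At 20 nM no member was called.

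MCM3, a ring subunit that pairs with MCM5, showed the largest fall of the 9. MCM3 measured 12.10, 12.40 and 12.56 on the untreated arrays, 12.26, 12.24 and 12.14 at 20 nM and 10.45, 10.24 and 10.39 at 60 nM. The 60 nM arrays lay below all 6 others, and the untreated and 20 nM arrays overlapped. The mean went from 12.36 ± 0.23 (n = 3) to 10.36 ± 0.11, a fall of 2.00 (SE 0.11, limma adjusted p = 4.53e-05), which is 74.9% less signal on the linear scale. MCM5 measured 9.67, 9.80 and 9.96 on the untreated arrays, 9.69, 9.66 and 9.54 at 20 nM and 8.26, 8.16 and 8.24 at 60 nM. Its 60 nM arrays were again the lowest 3, with a fall of 1.59 (SE 0.08, limma adjusted p = 2.09e-05), or 66.9% of the linear signal.

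MCM6, MCM4 and MCM7 form the core with the strongest helicase activity of its own when purified, and MCM2 binds histones and closes the ring beside MCM5. MCM6 measured 11.44, 11.59 and 11.43 on the untreated arrays, 11.30, 11.65 and 11.29 at 20 nM and 9.76, 9.64 and 9.69 at 60 nM. MCM6 was low at 60 nM only, and fell by 1.79 (SE 0.10, limma adjusted p = 4.29e-05), or 71.1% of the linear signal. MCM4 measured 11.33, 11.46 and 11.58 on the untreated arrays, 11.31, 11.40 and 11.33 at 20 nM and 10.85, 10.76 and 10.84 at 60 nM. The groups at 60 nM and untreated did not overlap, but the fall of 0.64 (SE 0.06, adjusted p = 0.000426) was smaller than that of MCM6, with 95% intervals of -0.78 to -0.49 and -2.03 to -1.55. MCM7 measured 12.21, 12.32 and 12.49 on the untreated arrays, 12.37, 12.21 and 12.18 at 20 nM and 11.56, 11.47 and 11.55 at 60 nM. MCM7 was lowest on the 3 arrays at 60 nM and fell by 0.82 (SE 0.08, adjusted p = 0.000387), or 43.3% of the linear signal. MCM2 measured 8.86, 9.15 and 9.25 on the untreated arrays, 9.12, 8.90 and 8.86 at 20 nM and 8.41, 8.21 and 8.41 at 60 nM. MCM2 also separated the 60 nM arrays from the other 6, with a fall of 0.75 (SE 0.12, adjusted p = 0.00376). With a score of each array's balance between gene-dense and gene-poor chromosomes (the chromosome score) as a covariate, the MCM2 value was -0.47 (adjusted p = 0.0331).

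**Figure D1:**
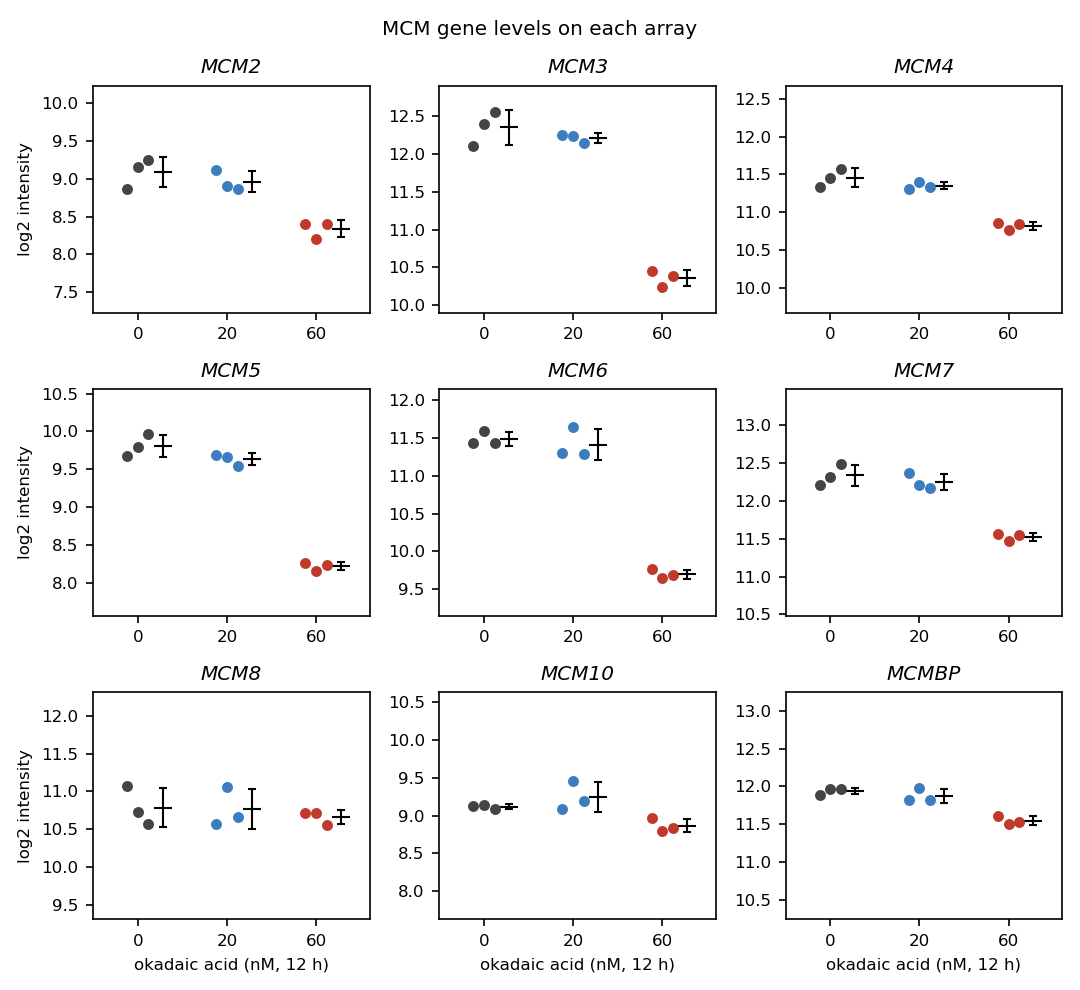
Log2 intensity (vertical axis, the same span of 3 units in each panel but a different position) of the 9 MCM genes at 0, 20 and 60 nM okadaic acid, with a point for each array and the mean ± SD of 3 arrays beside it. For MCM2 to MCM7, MCM10 and MCMBP the 3 arrays at 60 nM lie below all 3 untreated ones, and for MCM8 they overlap.

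The probe sets of the ring genes thus did not fall by equal amounts at 60 nM. The 95% intervals of MCM3 (-2.27 to -1.73), MCM5 (-1.77 to -1.41) and MCM6 (-2.03 to -1.55) lay wholly below those of MCM2 (-1.02 to -0.47), MCM4 (-0.78 to -0.49) and MCM7 (-1.003 to -0.63). Counted from each gene's untreated mean, the spread between the most and the least lowered ring gene on an array was 1.31 to 1.43 at 60 nM, 0.12 to 0.26 untreated and 0.14 to 0.35 at 20 nM. For MCM3 over MCM4, the extremes and therefore chosen by these values, the within-array log2 ratio minus its untreated mean was -1.31, -1.43 and -1.35 at 60 nM and -0.13, 0.04 and 0.08 untreated. Array intensities of different genes are not on one scale, so these differences say which probe set changed more and not which transcript was scarcer. Whether the transcripts themselves fell by unequal amounts was not tested. In RNA from whole cultures, fewer cells in the phase that expresses these genes and less transcript per cell cannot be told apart.

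Among the members outside the ring, MCMBP was lower at 60 nM than in untreated cells. MCMBP measured 11.89, 11.96 and 11.97 on the untreated arrays, 11.82, 11.98 and 11.82 at 20 nM and 11.61, 11.50 and 11.52 at 60 nM. The 60 nM arrays lay below the other 6 and the fall was 0.39 (SE 0.05, adjusted p = 0.00186), or 23.9% of the linear signal. After a shift of the arrays to equal hybridisation controls the value was -0.38 and the call was lost (adjusted p = 0.362), with a median SE over genes of 0.204 in place of 0.0612. MCM10 measured 9.13, 9.14 and 9.08 on the untreated arrays, 9.09, 9.46 and 9.19 at 20 nM and 8.96, 8.80 and 8.84 at 60 nM. MCM10 was lower on each 60 nM array than on each untreated one, by 0.25 on average (SE 0.09), but did not pass the test (adjusted p = 0.113). Its highest value was that of 20 nM replicate 2, and without that array the comparison of 60 nM with untreated passed the test at the same value (adjusted p = 0.0181). MCM8 measured 11.06, 10.73 and 10.56 on the untreated arrays, 10.56, 11.06 and 10.66 at 20 nM and 10.71, 10.71 and 10.55 at 60 nM. MCM8 varied more within the untreated and the 20 nM groups than between groups, with a difference of -0.13 at 60 nM (SE 0.16, adjusted p = 0.730, 95% interval -0.51 to 0.26). This interval includes the fall measured for MCMBP but not the fall of 0.64 of MCM4, the smallest of the ring.

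At 20 nM the test called 0 of 9 members by limma, and 0 also with a variance trend and robust settings, against 0.0223% of all genes called (5 of 22465). At an unadjusted p under 0.05 there was 1 member, MCM5, with a log2 difference of -0.18 (SE 0.08, limma adjusted p = 1). Of 10062 genes above background 796 had such an unadjusted p. The differences of the ring genes at 20 nM ran from -0.18 to -0.07, and their signs turned after the shift to equal hybridisation controls, which moved the median of all genes by 0.29. For none of the 9 genes did the 20 nM arrays separate from the untreated ones, which they did downward for 3.44% and upward for 2.57% of all genes. The 95% intervals of the ring genes at 20 nM reached no lower than -0.41, so that a fall of the size measured at 60 nM for any of them lies outside its interval.

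Between the doses, 8 of 9 members were lower at 60 nM than at 20 nM, where 10.9% of all genes were called lower and 6.94% higher, and 22.2% of those above background were lower. The same 8 had their 60 nM arrays below all 20 nM arrays, as did 18.7% of all genes and 3557 of the 10062 above background. The log2 differences were -1.85 for MCM3 (SE 0.11, adjusted p = 9.80e-05), -1.71 for MCM6, -1.41 for MCM5, -0.72 for MCM7, -0.62 for MCM2, -0.53 for MCM4 and -0.33 for MCMBP. MCM10 fell by 0.38 (SE 0.09, adjusted p = 0.0299), a call that ended under 8 of 20 alternatives, among them the fit of the 6 arrays compared (adjusted p = 0.0836), equal array medians (0.0551), the chromosome score (0.106) and leaving out untreated replicate 2 (0.0559), 20 nM replicate 3 (0.0639) or 60 nM replicate 2 (0.101) or 3 (0.0936). MCM8 did not pass the test (-0.10, adjusted p = 0.757). This comparison shares the 60 nM arrays with that against untreated cells, so the values are set side by side and are not separate evidence. For the ring genes and MCMBP the 60 nM level was the lowest. The arrays of the other groups overlapped for each of these genes, and only the 20 nM interval of MCM5 lay below 0.

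**Figure D2:**
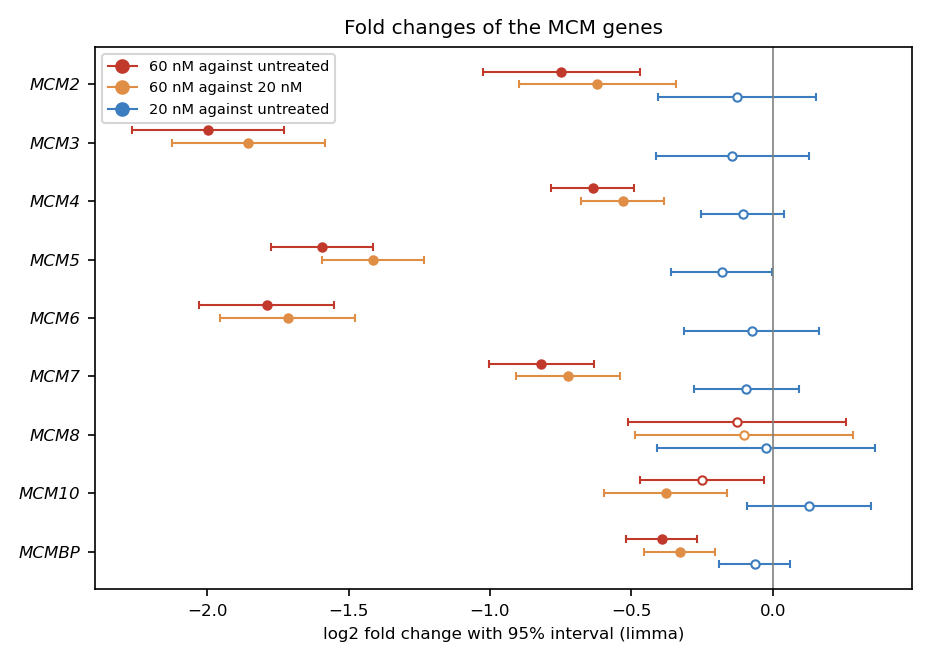
Log2 fold change (horizontal axis) with its 95% interval from the limma fit for the 9 MCM genes in the 3 comparisons, with filled points for called genes. MCM3, MCM5 and MCM6 lie at -1.59 or lower for 60 nM against untreated, and all intervals for 20 nM against untreated but that of MCM5 span 0.

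This chromosome score was taken per array as the median deviation of genes on the 4 autosomes with most protein-coding genes per base minus that on the 4 with fewest. It was -0.01, 0.01 and 0.10 on untreated replicates 1 to 3, 0.04, 0.00 and 0.01 at 20 nM and -0.03, -0.09 and -0.03 at 60 nM, so that the 60 nM arrays had the 3 lowest scores. As the score was computed from these same arrays, it and the dose cannot be fully told apart. Its use as a covariate may therefore also take away part of the dose difference. When the score, a covariate added after the data were seen, entered the fit, 7 members were still called lower at 60 nM. The ring values were then -1.72 for MCM3, -1.40 for MCM5, -1.83 for MCM6, -0.62 for MCM7 and -0.50 for MCM4. The value of MCM8 was -0.44 in place of -0.13 and stayed uncalled (adjusted p = 0.248). The score's part in the other results was not tested except where values are given.

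The promoters of the members that RefSeq lists were read for 4 words of the E2F type, TTTCGCGC, TTTGGCGC, TTTCCCGC and TTTGCCGC, on both strands. Windows run from 250 bases before to 50 bases after each start site in GRCh38.p14. The sequence table used here covered 7 members, and MCM4 and MCM5 were not analysed. Of all 35116 promoters listed, 3.31% held 1 or more of these words, 0.515% TTTCGCGC, 0.652% TTTGGCGC, 1.63% TTTCCCGC and 0.607% TTTGCCGC. Of the 7 members 6 held a word in at least 1 of their windows. The stretches of MCM2, MCM3, MCM6 and MCM7, ring genes that fell, are shown 5′ to 3′ with the words in capitals.
MCM2 (chr3:127598351-127598430, plus strand): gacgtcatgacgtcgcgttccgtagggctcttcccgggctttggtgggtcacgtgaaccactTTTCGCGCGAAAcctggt
MCM3 (chr6:52284723-52284802, minus strand): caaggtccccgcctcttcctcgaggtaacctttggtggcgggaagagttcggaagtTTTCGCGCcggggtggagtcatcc
MCM6 (chr2:135876514-135876603, minus strand): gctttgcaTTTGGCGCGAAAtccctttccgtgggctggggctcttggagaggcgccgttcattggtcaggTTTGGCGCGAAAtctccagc
MCM7 (chr7:100101378-100101457, minus strand): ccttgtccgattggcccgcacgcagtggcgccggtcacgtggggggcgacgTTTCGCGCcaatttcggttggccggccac

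Counted from the start site as 1, with no position 0, MCM3 held TTTCGCGC at -4 to 4 and MCM7 held it at -9 to -2. MCM2 held it at 3 to 10 and, overlapping on the other strand, at 7 to 14. In MCM6 the word TTTGGCGC at -152 to -145 overlapped TTTCGCGC on the other strand at -148 to -141, and the same pair recurred at -90 to -83 and -86 to -79. TTTCCCGC also occurred in MCM3 at -174 and in MCM7 at -187. The members that fell less or were not called were not free of such words: MCM8 held TTTGGCGC at 27 to 34 and the second start of MCMBP held TTTCCCGC at -9, while MCM10 and the first start of MCMBP held none of the 4. The other MCM7 starts listed held none. The CCAAT box, found in 34.6% of all promoters in either orientation, occurred in 3 places in MCM3, 2 in MCM6, 3 at the first MCM7 start, 2 in MCM10 and 1 in MCM8, and not in the windows of MCM2 or MCMBP. In MCM7 a CCAAT box at -2 to 3 overlapped the end of the TTTCGCGC word. A match is a description of the letters and does not show that a factor binds there.

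**Figure D3:**
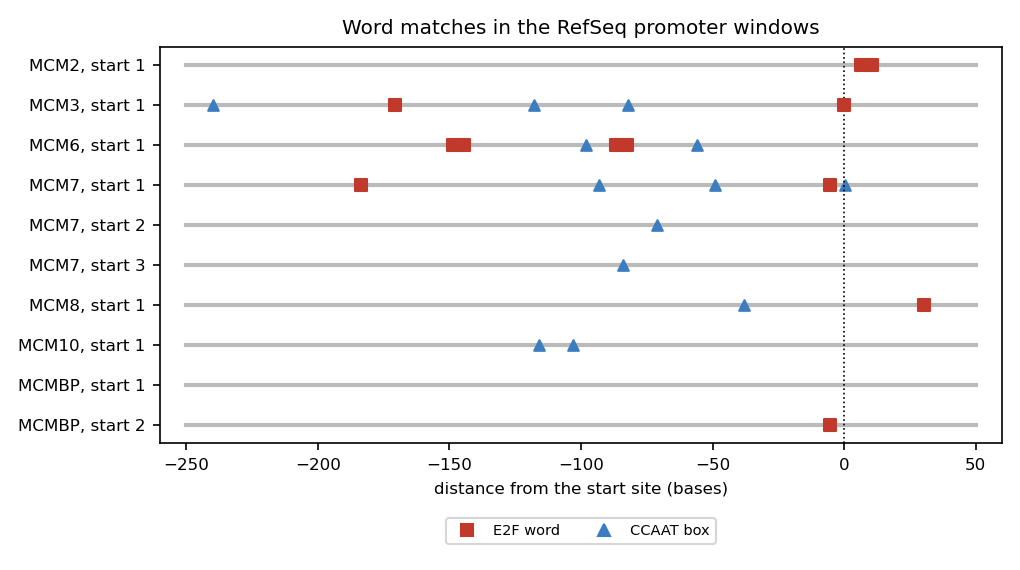
Positions of the 4 E2F-type words (squares) and of CCAAT boxes (triangles) on either strand, as distance in bases from the start site, in each RefSeq promoter window of the 7 members listed. MCM2, MCM3, MCM7 and MCMBP have a square within 15 bases of a start site, and MCM6 has 2 overlapping pairs upstream.

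Of 9 origin recognition and loading genes, which load the ring, 3 fell and 1 rose at 60 nM, shares near the 26.1% lower and 14.9% higher of genes above background: CDT1, which brings the ring to the origin, fell by 0.65 (SE 0.14, adjusted p = 0.0140), ORC1 by 0.45 and the loading ATPase CDC6 by 0.28 (adjusted p = 0.0483), while ORC4 rose by 0.63 (SE 0.17, adjusted p = 0.0405). All 4 of these calls were lost when single arrays were left out: CDT1 without 60 nM replicate 1 or 3, ORC1 without untreated replicate 2 or 3 or 60 nM replicate 2 or 3, ORC4 without untreated replicate 2 or 3, 20 nM replicate 3 or any 60 nM replicate, and CDC6 when any array but untreated replicate 1 was left out. The highest adjusted p was 0.0536 for CDT1, 0.0756 for ORC1, 0.117 for ORC4 and 0.146 for CDC6. The median over the 9 genes was -0.14, against 0.00 over all genes and -0.04 over genes above background.

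Of the 5 subunit genes whose products bind the ring to make the active helicase, 3 were called lower, beside 26.1% of genes above background. CDC45 measured 10.91, 11.13 and 11.25 on the untreated arrays, 10.98, 10.85 and 10.81 at 20 nM and 9.69, 9.60 and 9.77 at 60 nM. CDC45 separated the 60 nM arrays from the rest and fell by 1.41 (SE 0.09, limma adjusted p = 6.96e-05). Of the GINS subunits, GINS2 fell by 0.82 (SE 0.13, adjusted p = 0.00449) and GINS1 by 0.60 (SE 0.05, adjusted p = 0.000172), while GINS3 (-0.11, adjusted p = 0.190) and GINS4 (0.05, adjusted p = 0.710) did not pass the test. Of the 8 genes that switch the loaded ring on, 3 were called higher and 1 lower, beside 14.9% and 26.1% of genes above background, and 1 was higher with the chromosome score as a covariate, which ended the calls of DBF4 and DONSON. DBF4, the activator of the CDC7 kinase that phosphorylates the ring, rose by 0.96 (SE 0.19, adjusted p = 0.00997), its relative DBF4B by 0.77 (SE 0.10) and DONSON, which helps to load GINS, by 0.43 (SE 0.07). RECQL4 fell by 0.28 (SE 0.03), and the value of CDC7 itself, named after it was seen, was -0.72 (SE 0.22, adjusted p = 0.0584).

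Of 11 measured genes that work beside the helicase at the fork, 6 fell and 0 rose, beside 26.1% lower and 14.9% higher of genes above background. An unadjusted p under 0.05 was found for 8 of the 11 and for 5532 of 10062 genes above background. The primase subunit PRIM1 fell by 2.00 (SE 0.08, adjusted p = 1.11e-05), the polymerase alpha subunit POLA2 by 1.75, TIMELESS of the fork protection complex by 1.59 and the polymerase epsilon subunit POLE2 by 1.07. The catalytic subunits POLA1 (-0.67, adjusted p = 0.0452) and POLE (-0.50, adjusted p = 0.0166) made up the 6. The POLA1 call was lost when any array other than untreated replicate 3 or 20 nM replicate 2 was left out (adjusted p up to 0.131), and that of POLE without untreated replicate 2 or 60 nM replicate 2, after the hybridisation control shift and with the chromosome score. With either of those arrays left out 4 fork genes were lower. Of the 6 genes that handle histones at the helicase, SUPT16H (-0.97, SE 0.14) and SSRP1 (-0.59, SE 0.16) of the chaperone FACT and ASF1B (-0.71, SE 0.11) fell, while ASF1A rose by 1.41 (SE 0.17, adjusted p = 0.000991). MMS22L (-0.17, adjusted p = 0.809) and TONSL (at background) were not called. This makes 3 lower and 1 higher of 6, beside the same 26.1% and 14.9% of genes above background. The SSRP1 call was lost without untreated replicate 2, or any 1 of the arrays at 20 nM or 60 nM, with adjusted p up to 0.135.

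MCM9, the partner of MCM8, fell by 0.43 (SE 0.10, adjusted p = 0.0202), a call lost when untreated replicate 1 or 2 or 60 nM replicate 2 or 3 was left out (adjusted p up to 0.0722). HROB, which acts with MCM8 and MCM9, had a value of -0.03 (adjusted p = 0.844). Of 8 genes for unloading the helicase 2 fell, the ATPase VCP by 0.50 and its cofactor FAF1 by 0.34, a share of 25% that is close to the 26.1% called lower among genes above background. Leaving out 60 nM replicate 2 ended the call of VCP (adjusted p = 0.0534).

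Over these 49 helicase partner genes 19 were called lower and 5 higher at 60 nM, with a median of -0.17. Of all genes above background 26.1% were lower and 14.9% higher. The lower count was 12 without 60 nM replicate 2, and with the chromosome score as a covariate 11 were lower and 2 higher. The score also ended the calls of ORC1, ORC4, CDC6, CDT1, ASF1B, SSRP1, MCM9, VCP and FAF1, and the hybridisation control shift those of ORC1, CDC6, RECQL4, DONSON, MCM9, VCP and FAF1. At 20 nM limma called 0 of the 49. An unadjusted p under 0.05 was found for 5 of them and for 796 of 10062 genes above background. Between the doses 14 were lower and 4 higher at 60 nM, beside 2237 lower and 1299 higher of those 10062 genes. The 4 partner genes higher became 2 without untreated replicate 2, 20 nM replicate 1 or 3, or any 60 nM replicate.

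**Figure D4:**
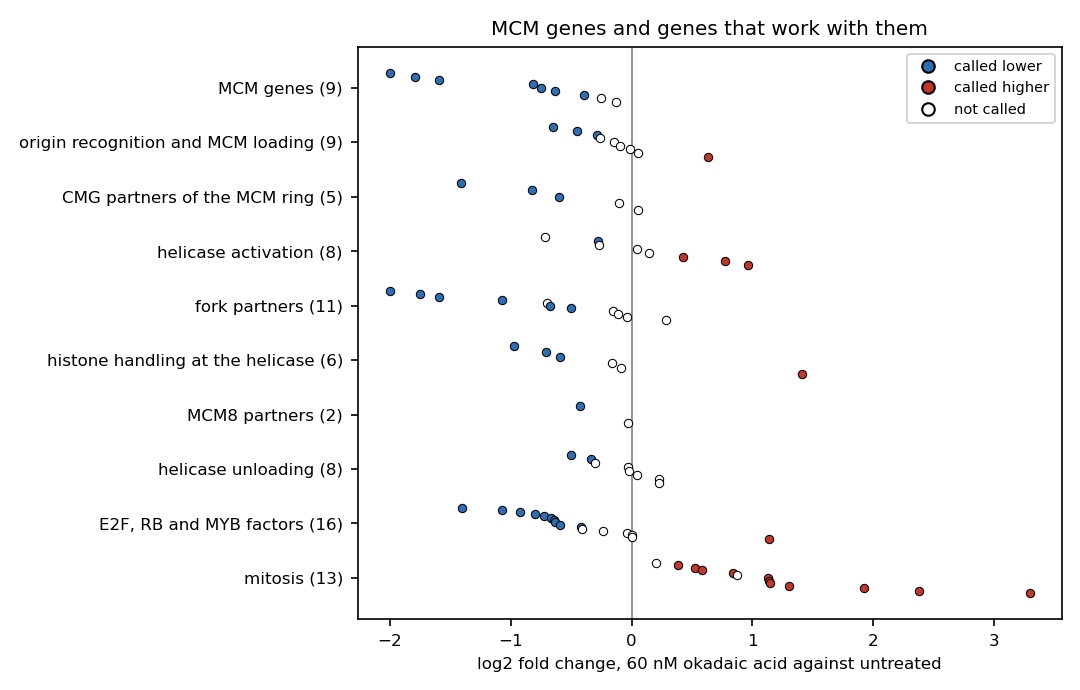
Log2 fold change at 60 nM okadaic acid against untreated (horizontal axis) for each measured gene of the lists, with a point per gene and filled points for called genes; numbers in brackets are genes measured. The MCM genes lie at or below -0.13, the mitosis genes lie above 0, and the activation list holds called genes on both sides.

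E2F1 measured 10.12, 10.44 and 10.66 on the untreated arrays, 10.25, 10.33 and 10.12 at 20 nM and 9.06, 8.96 and 8.998 at 60 nM. E2F1, an activator, was low on the 3 arrays at 60 nM and fell by 1.40 (SE 0.13, adjusted p = 0.000317). Of 16 E2F, RB and MYB factor genes 10 fell and 1 rose, beside 26.1% lower and 14.9% higher of all genes above background. With the chromosome score as a covariate 5 were lower and 0 higher, and without 60 nM replicate 2 the lower count was 8. RBL2, a pocket protein that represses E2F targets in resting cells, fell by 1.07 (SE 0.10), the E2F partner TFDP1 by 0.42 (SE 0.05) and the activator E2F2 by 0.59 (SE 0.09), and LIN54, a DNA-binding subunit of the DREAM and MuvB complexes, rose by 1.14 (SE 0.18, adjusted p = 0.00354). The calls of E2F2, E2F3, E2F4, E2F5, E2F7 and LIN54 ended with the score, those of E2F4 and E2F7 also without 60 nM replicate 2, that of E2F7 also without 60 nM replicate 3, and that of TFDP1 after the hybridisation control shift. E2F6 (0.01, adjusted p = 0.965), RB1 (-0.41, adjusted p = 0.302) and MYBL2 (-0.24, adjusted p = 0.271), named after their values were seen, were not called. Of 13 mitosis genes 11 rose and 0 fell, beside 14.9% higher of genes above background, among them the kinases AURKA (0.84, SE 0.07) and PLK1 (1.13, SE 0.11) and the kinesins KIF20A (1.14, SE 0.10) and CENPE (3.30, SE 0.37). The count of mitosis genes higher was 7 without untreated replicate 2 or 3 or 60 nM replicate 1 or 3, 8 without 20 nM replicate 3 or 60 nM replicate 2, and 6 with the chromosome score. The score ended the calls of TOP2A, CDK1, BUB1, CENPF and ASPM, and all of these but CENPF were also lost when single arrays were left out, with adjusted p up to 0.120. The opposite directions of replication and mitosis genes were known from these data before the lists were drawn up.

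MCM7 carries the genes of 3 microRNAs within an intron, and their mature forms are shown with the seed, bases 2 to 8, in capitals.
miR-25-3p (chr7:100093571-100093592, minus strand): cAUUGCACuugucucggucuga
miR-93-5p (chr7:100093815-100093837, minus strand): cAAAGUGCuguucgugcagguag
miR-106b-5p (chr7:100094043-100094063, minus strand): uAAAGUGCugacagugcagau
The seed AAAGUGC is shared by miR-93-5p and miR-106b-5p, and miR-25-3p has AUUGCAC. Sequences and positions are from RefSeq on GRCh38.p14. MIR25 measured 5.92, 6.21 and 6.11 on the untreated arrays, 6.18, 6.32 and 6.10 at 20 nM and 5.53, 5.29 and 5.28 at 60 nM. The MIR25 probe set went from just above the background level to below it at 60 nM, where it was at least 1.20-fold lower (adjusted p = 0.00216). Such bounds set the level under background to the background level. The probe sets of MIR93 (3.52 ± 0.12 untreated) and MIR106B (3.27 ± 0.05) were at background in all groups and were not called. A probe set for a microRNA gene may also read the host's unspliced transcript, and the array does not separate them.

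Of the 19 measured genes next to the members on the chromosome, 13 of them above background, 3 fell and 3 rose at 60 nM. Beside this stand 13.2% lower and 7.94% higher of all genes, and 26.1% and 14.9% of genes above background. PRKDC, the DNA-dependent protein kinase gene, lies beside MCM4. PRKDC measured 12.39, 12.44 and 12.30 on the untreated arrays, 12.10, 12.46 and 12.13 at 20 nM and 11.80, 11.69 and 11.65 at 60 nM. PRKDC was lower on each 60 nM array than on each untreated one and fell by 0.66 (SE 0.10, adjusted p = 0.00298), beside 0.64 for MCM4. Of the 7 members in the promoter table, some have a neighbour that starts close by on the opposite strand: TPRA1 at 180 bases from MCM2, AP4M1 at 40 to 889 bases from the MCM7 starts and TRMT6 at 119 bases from MCM8. Their values at 60 nM were 0.06 for TPRA1 (adjusted p = 0.280), 0.01 for AP4M1 (adjusted p = 0.970) and 0.24 for TRMT6 (adjusted p = 0.191), and none was called. The start sites of MCM4 and MCM5 were not compared in this way with those of PRKDC and their other neighbours. AP4M1 had one and the same value on 7 of 9 arrays and TPRA1 on 5, so their SE may be too small. The same holds for CXCR4 and PAQR8, each with 1 value on the 3 arrays at 20 nM. Beside MCM5, HMOX1 was under background on the 3 untreated arrays and at least 1.19-fold higher at 60 nM (adjusted p = 0.000139), and beside MCM6 the chemokine receptor gene CXCR4 rose by 2.35 (SE 0.10). PODXL2 beside MCM2 fell by 0.73 (SE 0.14), and PAQR8 beside MCM3 was called lower with all groups at background. INPP5F beside MCMBP rose by 0.42 (adjusted p = 0.0485), a call lost when any array other than 20 nM replicate 1 or 2 was left out, with adjusted p up to 0.149. Not called were UBE2V2 (-0.01), COPS6 (-0.19), TAF6 (-0.13), CRLS1 (0.02) and SEC23IP (-0.06), nor, at background, IL17F, RASD2, LCT, OPTN and UCMA.

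The genes whose profile was most like the mean of MCM2 to MCM7 were found by the root-mean-square (RMS) difference over the 9 arrays, each profile taken from its own untreated mean, among 10053 genes above background other than the members. They were SMARCC2, a chromatin remodeller subunit (RMS 0.0426, log2 fold change at 60 nM -1.23), DSN1 of the kinetochore (0.0757, -1.30), the uracil DNA glycosylase UNG (0.0767, -1.26), the mitochondrial phosphatase PTPMT1 (0.0786, -1.20) and the Golgi adaptor GGA3 (0.0804, -1.24). Among the members the RMS difference from the same mean was smallest for MCM5 (0.195), then MCM7 (0.262), MCM2 (0.305), MCM6 (0.325), MCM4 (0.364) and MCM3 (0.426), and larger for MCMBP (0.508), MCM10 (0.614) and MCM8 (0.697). Set among the 10053 candidates, MCM5 would rank at place 198 and MCM3 at place 1126. On each array at 60 nM the ring's mean lay above MCM3, MCM5 and MCM6 and below MCM2, MCM4 and MCM7. No ring gene therefore had a fall of the mean's size, while other genes could. Profiles were not scaled, so the RMS difference also counts the size of a fall. These places thus cannot show whether the ring genes changed alike.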

How the data were processed

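Total RNA was measured on 9 arrays. Per the labels' protocols it was purified on columns, and cRNA labelled with biotin was synthesized. The authors deposited a table of 70523 probe sets, whose values are intensities on a linear scale (4.81 to 999953, median 21.8). The submitters' processing notes name RMA of a version and genome build that are not given here. Such processing makes arrays alike and would hide a change shared by most transcripts. Values were set on a log2 scale with no constant added. Of the probe sets 23781 had 1 gene symbol in the platform annotation, and those with several or none were left out. For 479 genes with several the brightest was used, giving 22465 genes. The members have 1 probe set each, and for MCM2, MCM8 and MCMBP 1 value occurs on 2 arrays.

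All arrays were fitted with limma 3.58.1 in R 4.3.3 (lmFit, eBayes, a term per group). On simulated arrays of 22465 genes, 60 nM against untreated, 36%, 68%, 86% and 100% of genes brighter than the median gene and changed 1.25-fold, 1.5-fold, 2-fold and 4-fold were called, with 13 unchanged genes called. Only 50 genes were changed by each fold, with normal noise. Far more genes were called in the data, which alters the adjusted threshold, so these shares need not hold there. Gene lists were counted, not tested. The members, lists and rules were chosen with earlier results of these data known. Named were all members, every gene of lists of 6 or fewer, otherwise up to 4 called genes of smallest p and called genes against the majority, the 5 most alike genes and neighbours. Figures were drawn with matplotlib 3.10.9. Alternatives were other scalings, an added constant of 16, genes above background only, mean probe sets, a variance trend, 6 arrays, a replicate block, arrays left out, and the chromosome score.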

Additional observations from a re-analysis of the deposited data

How the results depend on the processing

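Over 20 alternatives, 9 of which leave out an array, the calls of MCM2 to MCM7 at 60 nM against untreated and against 20 nM kept their direction and side of the threshold. The number of MCM genes lower was 6 to 8 and 7 to 8 in these comparisons, and 0 at 20 nM against untreated. MCM10 at 60 nM against untreated passed the test under 4 alternatives, and its call against 20 nM ended under 8. Genes called at 60 nM against untreated were 4752, and 2248 after the hybridisation control shift and 2699 with the chromosome score. Partner genes there were 19 lower (12 to 19 with an array left out, 11 with the score) and 5 higher (4 to 5, and 2 with the score). At 20 nM 5 genes were called, and 0 with equal array medians, 16 after the hybridisation control shift, 8 among genes above background only, 2 in the fit of 6 arrays, 27 without untreated replicate 3 and 20 nM replicate 2, 15 with the score and 0 to 19 with an array left out. For 60 nM against 20 nM 4006 genes were called (2546 with the score), with 14 partner genes lower (22 with quantile normalization, 9 with the score) and 4 higher (1 after the hybridisation control shift, 2 with the score, 2 to 4 with an array left out). The cause of these moves was not tested.

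Values that changed sign had not passed the test. After the hybridisation control shift, which moved the median of all genes at 20 nM to 0.29, the 20 nM values were 0.165 for MCM2, 0.149 for MCM3, 0.186 for MCM4, 0.111 for MCM5, 0.217 for MCM6, 0.198 for MCM7, 0.267 for MCM8 and 0.228 for MCMBP. MCM7 at 20 nM was 0.00122 without the 2 arrays farthest from their groups. MCM8 at 20 nM was 0.0154 with quantile normalization, 0.115 without untreated replicate 1, 0.0756 without 20 nM replicate 1 and 0.0254 without 20 nM replicate 3. At 60 nM MCM8 was 0.0132 against untreated without untreated replicate 1, and 0.0471 against 20 nM without 20 nM replicate 2, alone or with untreated replicate 3. With an array left out the lowest MCM8 values were -0.174 at 20 nM against untreated, -0.238 at 60 nM against untreated and -0.202 against 20 nM.

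Groups share replicate numbers in the labels. Deviations of same-numbered arrays from their group means correlated across genes above background at -0.673 to 0.117. With so few arrays behind each mean, this cannot exclude that same-numbered samples were handled together. The main fit used no pairing, and a replicate block was an alternative. With the replicate block 7 MCM genes were lower at 60 nM against untreated and 7 against 20 nM, 14 partner genes were lower at 60 nM, 2 were higher against 20 nM, 7 mitosis genes were higher at 60 nM against untreated, and 0 genes were called at 20 nM.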
